A study of Mus musculus with 15 samples.

Results

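The genes examined here encode Tudor domain proteins and were grouped as those of germ granules, although *Tdrd3* is broadly expressed. They are *Tdrd1*, *Tdrd3*, *Tdrd5*, *Tdrd6*, *Tdrd7*, *Tdrd9*, *Tdrd12*, *Tdrkh*, *Rnf17* and *Stk31*, 10 of the 54838 genes in the count tables, and they were chosen by name. Their RNA was measured in gonocytes, the foetal germ cells of the testis, at E16.5, when the genome of these cells is being methylated anew. Cells of 2 genotypes were compared, control *Tex15*+/- and *Tex15*-/-, with 3 libraries each. TEX15 is a nuclear protein associated with MIWI2, and the comparison asks whether its loss alters the RNA of these genes, several of which serve the piRNA pathway. All 6 libraries came from embryos that also carried *Miwi2* tdTom/+, a reporter at the *Miwi2* locus, and gonocytes were sorted by tdTomato fluorescence. The strain was mixed B6CBAF1/Crl; C57BL/6N. The *Tex15* null allele is an insertion in exon 5, and the line descends from 1 founder. The control cells were heterozygous rather than wild type, so no library here has 2 intact copies of *Tex15*. How many embryos went into a library is not given in the sources used here, and the spread between libraries may therefore be partly technical.

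A Tudor domain is a small fold that binds methylated arginine or lysine. In germ cells, several proteins that carry it bind the methylated arginines of PIWI proteins and gather them in granules beside mitochondria, where long transcripts are cut into piRNAs, the small RNAs that guide PIWI proteins to transposons. In foetal gonocytes the granules are of 2 kinds, the pi-bodies, which hold the PIWI protein MILI with TDRD1, and the piP-bodies, which hold MIWI2 with TDRD9 and MAEL. After birth, round spermatids have a related granule, the chromatoid body, where TDRD6 and TDRD7 act, and RNF17 forms granules of its own.

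All 10 genes lie on autosomes and were matched by their Ensembl identifiers (GRCm38). *Tdrd5* lies on chromosome 1, *Tdrkh* on 3, *Tdrd7* on 4, *Stk31* on 6, *Tdrd12* on 7, *Tdrd9* on 12, *Tdrd3* and *Rnf17* on 14, *Tdrd6* on 17 and *Tdrd1* on 19. *Tdrd12* (ENSMUSG00000030491) runs on the minus strand from 35469098 to 35537745 and has 30 exons in its longest coding transcript. The genes at the top of the expression order below and the gene with the lowest p-value of the 10 in the comparison of genotypes are shown by their promoters. A RefSeq window from 250 bases before to 50 after the transcription start was at hand for 8 of the 10 genes, all but *Tdrd6* and *Rnf17*. Each is written 5′ to 3′ on the strand of the gene, with CACGTG, the canonical E-box, in capitals. *Stk31* (chr6:49395354-49395653, plus strand), *Tdrd9* (chr12:111971309-111971608, plus strand), *Tdrd1* (chr19:56825959-56826258, plus strand) and *Tdrd12* (chr7:35537695-35537994, minus strand) are given in GRCm38.p6.
Stk31: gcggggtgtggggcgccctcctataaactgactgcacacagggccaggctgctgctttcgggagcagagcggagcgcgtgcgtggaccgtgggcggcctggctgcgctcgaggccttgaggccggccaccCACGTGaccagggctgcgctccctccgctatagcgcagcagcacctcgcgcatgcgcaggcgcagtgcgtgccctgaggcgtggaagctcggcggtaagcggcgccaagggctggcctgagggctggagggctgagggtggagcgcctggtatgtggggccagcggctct
Tdrd9: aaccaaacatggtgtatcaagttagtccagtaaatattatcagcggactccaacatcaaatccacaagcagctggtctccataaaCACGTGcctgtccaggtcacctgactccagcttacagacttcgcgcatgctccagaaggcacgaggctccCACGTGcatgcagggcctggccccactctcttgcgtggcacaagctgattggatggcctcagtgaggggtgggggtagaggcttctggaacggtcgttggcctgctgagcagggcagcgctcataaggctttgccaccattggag
Tdrd1: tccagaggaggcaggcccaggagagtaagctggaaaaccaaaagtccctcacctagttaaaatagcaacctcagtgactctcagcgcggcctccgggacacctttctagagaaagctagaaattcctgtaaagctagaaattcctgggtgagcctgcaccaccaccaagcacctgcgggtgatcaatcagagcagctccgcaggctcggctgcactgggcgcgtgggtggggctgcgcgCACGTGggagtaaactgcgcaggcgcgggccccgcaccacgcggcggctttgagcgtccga
Tdrd12: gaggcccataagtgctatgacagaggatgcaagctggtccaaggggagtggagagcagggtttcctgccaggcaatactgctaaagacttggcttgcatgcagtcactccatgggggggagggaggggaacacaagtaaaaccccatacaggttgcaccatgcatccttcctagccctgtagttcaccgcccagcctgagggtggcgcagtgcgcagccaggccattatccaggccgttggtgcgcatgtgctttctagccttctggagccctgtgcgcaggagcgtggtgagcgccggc

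CACGTG, which reads the same on both strands, was present once in the *Stk31* window, 2 times in that of *Tdrd9* and once in that of *Tdrd1*, and in none of the other 5. These 3 genes had the highest levels of the group, as given below, but not every gene of the group was searched. *Rnf17*, the next in level, and *Tdrd6*, the lowest, had no window. For the genes with several RefSeq starts, *Tdrd1*, *Tdrd7*, *Tdrd12* and *Stk31*, only the window nearest the GENCODE gene start was searched. Whether CACGTG goes with level in the group therefore cannot be told from these windows. Of the 32851 promoter windows in the RefSeq table, 7.15% held it. TCCCGC, an E2F6-type motif, searched on both strands, was found in the windows of *Tdrd3* and *Tdrd5* and in 20% of all windows. The 8 windows held from 4 CpG dinucleotides (*Tdrd7*) to 48 (*Tdrd5*), with a median of 22.5 against 7 over all windows. A match is a description of the letters and was not tested against RNA levels.

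The gonocyte libraries held between 4893265 and 5697020 reads on genes. *Tex15* itself had 1509, 1667 and 1664 counts per 1000000 reads (CPM, scaled by TMM) in controls and 468, 230 and 249 in *Tex15*-/- libraries, a log2 fold change of -2.35 (SE 0.229; adjusted p = 0.0112, edgeR), which misses the call of adjusted p under 0.01 used here. Every *Tex15*-/- library was below every control. Germ cell markers were present in all libraries, with sums of 2151 to 2264 CPM in controls and 2025 to 2246 CPM in *Tex15*-/- libraries (8 genes, of which *Ddx4*, *Mael* and *Piwil4* are also in the piRNA pathway list below). *Ddx4* and *Mael* carry most of that sum, and *Nanos2*, also on the list, had only 2 to 11 reads a library and was too low to be fitted. The groups overlapped for 6 of the 8, among them *Dnmt3l* (log2 fold change 0.14) and *Mael* (0.03), and did not for *Dazl* and *Nanos3*, named after their values were seen, which were below every control in all 3 *Tex15*-/- libraries. Of all genes tested, 13.2% did not overlap, and 6.68% were lower without overlap. *Dazl* had 292, 276 and 255 CPM in controls against 238, 204 and 236 CPM (log2 fold change -0.28, adjusted p = 0.471, edgeR), and *Nanos3*, at 1.71 to 4.24 CPM, had a log2 fold change of -0.86 (adjusted p = 0.587, edgeR). A pair of libraries stood apart. The 38 markers of Sertoli, Leydig, interstitial, endothelial and blood cells summed to 188, 244 and 199 CPM in controls and to 188 CPM in *Tex15*-/- library 1, but to 2975 CPM in *Tex15*-/- library 2 and to 849 CPM in *Tex15*-/- library 3. The interstitial markers carry most of this, with 1996 CPM in library 2 and 475 CPM in library 3. The Sertoli, Leydig and blood sums were also above every control in both libraries. The endothelial sum was above in library 2 (219 CPM), but in library 3 (60.32 CPM) it lay within the controls (57.55 to 61.58 CPM). In library 2, 37 of the 38 markers were above every control, in library 3, 34, and in library 1, 5, and 2 markers were at 0 in all controls. Their part in the differences between genotypes was not tested. In bulk RNA, fewer gonocytes and less RNA per gonocyte cannot be told apart.

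Levels of different genes were compared as CPM per kb of exon, averaged over the 3 control libraries. All 10 genes had reads in every control library, at levels that spanned 247-fold. *Stk31*, which encodes a Tudor domain protein with a kinase-like domain, was the highest, at 201 CPM per kb (SD 16.6, n = 3). It took 32.4% of the summed level of the 10 genes and ranked 122nd among the 38882 genes with a count in a control. *Tdrd9*, the RNA helicase of the piP-body, followed with 140 CPM per kb (SD 14.4), and *Tdrd1*, the MILI partner of the pi-body, with 92.2 (SD 3.72). These genes ranked 177th and 277th. Both genes were among the top 1%, and *Tdrd9* exceeded *Tdrd1* by 1.52-fold with no overlap between libraries. *Piwil4*, which encodes MIWI2, had 34.3 CPM per kb and ranked 921st. Every library was heterozygous for the *Miwi2* reporter at this gene, so its level may not be that of an intact gene.

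*Rnf17* (58.5 CPM per kb, SD 0.962), which encodes the component of RNF17 granules, and *Tdrd7* (42.9, SD 0.679), known for the chromatoid body of spermatids, came next, followed by *Tdrd5* (38.2, SD 1.41), whose product is needed for piRNA production and for silencing of LINE1 elements. They ranked 509th, 706th and 801st. *Tdrkh*, encoding the mitochondrial Tudor protein that helps trim piRNA 3′ ends, had 19.6 CPM per kb (SD 1.18), *Tdrd12*, encoding a helicase-like Tudor protein needed for secondary piRNAs bound to MIWI2, 14.6 (SD 1.25), and *Tdrd3*, a broadly expressed gene whose product partners the topoisomerase TOP3B, 12.6 (SD 0.856). The libraries of *Tdrd12* and *Tdrd3* overlapped, so their order did not hold beyond the spread, and this was the only neighbouring pair of the 10 that overlapped. *Tdrd6*, which organises the chromatoid body, had 0.814 CPM per kb (SD 0.218) and ranked 19485th, 15.4-fold below *Tdrd3*. In the same sorted control libraries, 16 of the 38 somatic and blood cell markers were at or above this level, with a range from 0 to 5.20 CPM per kb, so these few reads do not by themselves show transcription of *Tdrd6* in gonocytes. The chromatoid body genes *Tdrd7* and *Tdrd6* were not alike in level at E16.5, since *Tdrd7* lay within the top 2% and *Tdrd6* close to the middle of all genes with a count. *Rnf17*, of a separate granule, also lay within the top 2%.

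**Figure D1:**
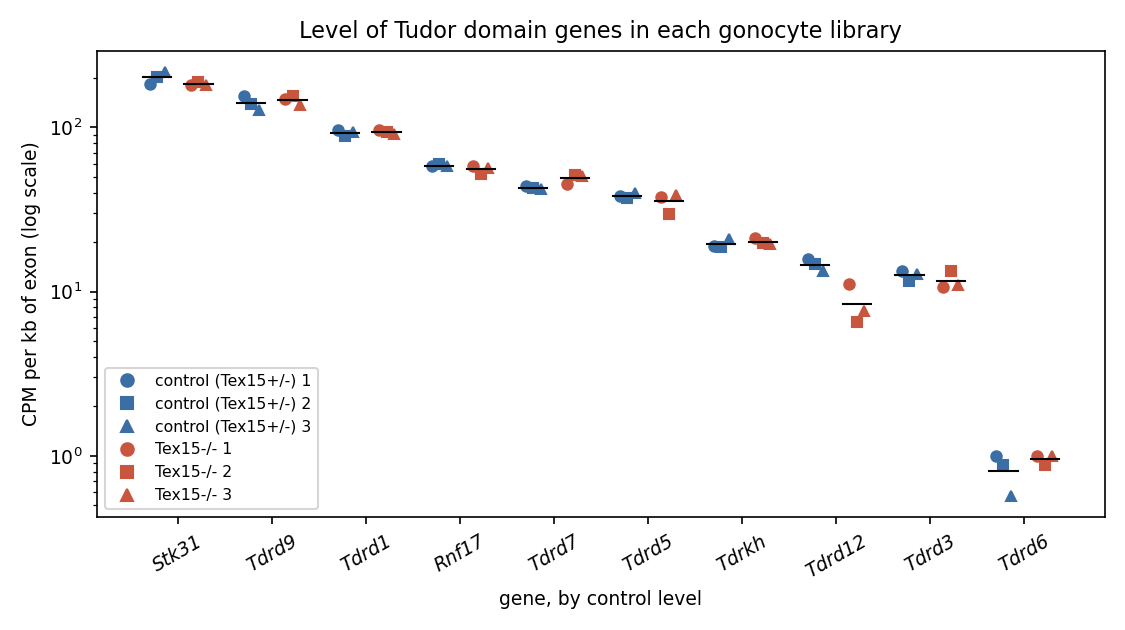
CPM per kb of exon (log axis) of each Tudor domain gene in each gonocyte library, with genes ordered by control level, control libraries in blue, *Tex15*-/- libraries in red, the symbol giving the library number and black lines the group means (n = 3). The levels ran from 201 CPM per kb for *Stk31* to 0.814 for *Tdrd6* in controls, and only *Tdrd12* and *Tdrd3* exchanged places in *Tex15*-/- libraries.

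The order depends on the length used for each gene. With the longest protein-coding transcript in place of all exons, *Tdrd5* reached 70.5 CPM per kb and the fourth place, ahead of *Rnf17* (69.3) and *Tdrd7* (45.7), and the other 7 genes kept their places. *Tdrkh* shares 2255 bp of exon, 36.7% of its exon length, with *Oaz3* on the opposite strand, and *Tdrd5* shares 176 bp with an antisense gene. Whether the counting used strand is not given in the sources used here, and the counts from these stretches are uncertain.

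When *Tex15*-/- gonocytes were compared with controls, the RNA of 9 of the 10 genes was fitted within 0.25 of the control level on the log2 scale, against 8734 of all 16311 genes tested. *Tdrd12* was the exception, at 0.578 of its control level. None of the 10 genes passed the adjusted p of 0.01 used as the call (edgeR quasi-likelihood test, Benjamini-Hochberg over 16311 genes), where 0.0% of all genes tested did and 0.0184% passed 0.05, and none of the 10 did in DESeq2, where 0.033% of 42446 genes did. At an unadjusted p under 0.05 there was 1 of the 10, *Tdrd12*, against 9.2% of all genes tested (3.15% lower, 6.05% higher). The groups did not overlap for 2 of the 10, *Tdrd12* (lower) and *Tdrd7* (higher), against 13.2% of all genes, 6.68% lower and 6.51% higher. The median absolute log2 fold change was 0.11 for the 10 genes and 0.23 for all genes tested, and 0.15 for the 9070 genes with a control mean of at least 10 CPM. Of the log2 fold changes 5 were below 0 and 5 above, with a median of -0.03, and 8158 of the 16311 genes tested were below 0. The shares of the group by p-value, without overlap and below 0 are near those of all genes. Its share within 0.25 is larger, and was not set against genes of like level.

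*Tdrd12* had 68.4, 63.8 and 57.5 CPM in controls against 48.5, 28.2 and 33.1 CPM in *Tex15*-/- libraries, from 314 to 371 reads and from 155 to 242 reads. All 3 *Tex15*-/- libraries were below all 3 controls, and library 1 was the nearest to them. The log2 fold change was -0.79 (SE 0.190, 95% interval -1.21 to -0.37), with an unadjusted p of 0.00168, the 42nd lowest of all genes tested, and an adjusted p of 0.460 (edgeR), so that the difference did not pass the test. It moves with the libraries that stand apart. The 2 *Tex15*-/- libraries with the high sums of somatic and blood markers, 2975 and 849 CPM, were those with the lowest *Tdrd12*, while *Tex15*-/- library 1, with a marker sum of 188 CPM as in controls, had the smallest difference. The remaining *Tex15* RNA went in the same order as *Tdrd12*, with 468 CPM in *Tex15*-/- library 1 against 230 and 249 CPM in libraries 2 and 3. Neither the part of the markers in the result nor that of the remaining *Tex15* RNA was tested. With library 1 as the only *Tex15*-/- sample, whose spread is then assumed to be that of the controls, the log2 fold change was -0.38 (adjusted p = 1.00, edgeR), and without library 1 it was -1.03 (adjusted p = 0.00228, edgeR). In that last fit 2.21% of all genes tested were called.

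The level of *Tdrd12* was also set against other germ cell transcripts of the same library. It was 2.31, 2.22 and 1.98% of the summed CPM of the other 9 Tudor domain genes in controls and 1.66, 0.971 and 1.17% in *Tex15*-/- libraries. Against *Ddx4*, the RNA helicase that marks germ cells, it was 9.22, 9.35 and 7.62% in controls against 7.27, 4.10 and 4.47% in *Tex15*-/- libraries. By both measures every *Tex15*-/- library was below every control, as with *Tdrd12* CPM itself. *Ddx4* ranged only from 667 to 755 CPM over the 6 libraries, and the sum of the other 9 genes also varied little. The ratios thus largely restate the *Tdrd12* CPM values and are no separate evidence. By CPM, 6.68% of all genes tested were lower without overlap. *Ddx4* is 1 of the 6 germ cell markers of 8 whose groups overlapped, and the choice of another marker would give other ratios. The sum of the other 9 genes ranged from 2876 to 2961 CPM in controls and from 2841 to 2918 CPM in *Tex15*-/- libraries, and these ranges overlapped.

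**Figure D2:**
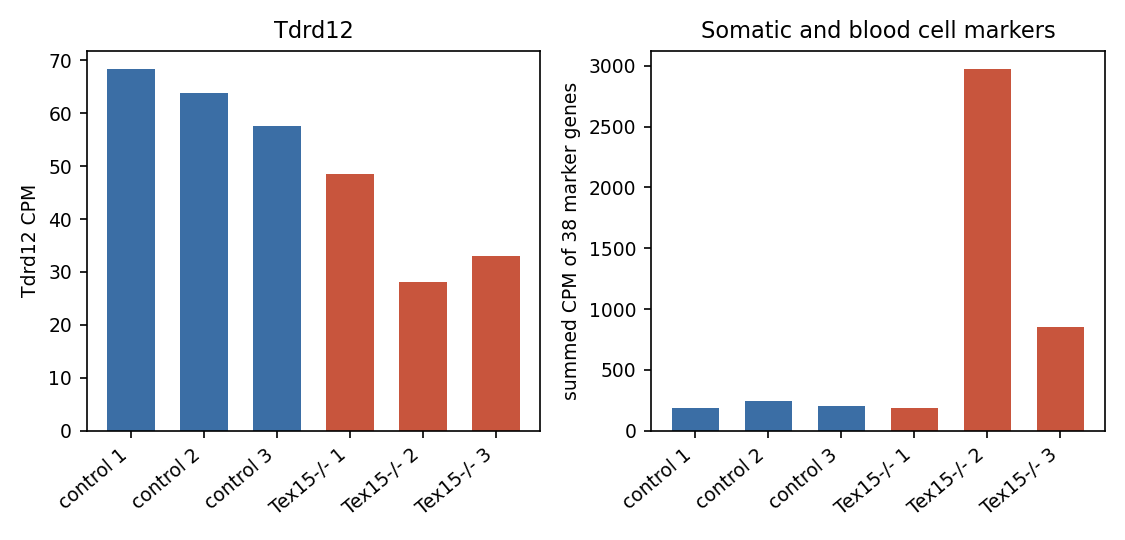
*Tdrd12* CPM (left) and the summed CPM of 38 marker genes of somatic and blood cells (right) in each gonocyte library, 1 bar a library, controls in blue and *Tex15*-/- in red. *Tdrd12* was lower in all 3 *Tex15*-/- libraries, and the marker sum was 2975 and 849 CPM in libraries 2 and 3 against 188 to 244 CPM in the other 4.

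*Tdrd1*, *Tdrd9*, *Tdrkh* and *Tdrd5* overlapped between the genotypes. *Tdrd1* had 520.1, 480.0 and 506 CPM in controls against 524, 512 and 494 CPM in *Tex15*-/- libraries. The log2 fold change was 0.02 (95% interval -0.16 to 0.21; adjusted p = 0.941, edgeR), which spans 0.893 to 1.15 times the control level. *Tdrd9* had 843, 749.7 and 688 CPM in controls against 807, 842 and 744 CPM in *Tex15*-/- libraries. Here too the groups overlapped, with a log2 fold change of 0.07 (95% interval -0.15 to 0.29; adjusted p = 0.833, edgeR). *Tdrkh* had 117, 115 and 128 CPM in controls against 130.3, 121 and 119 CPM in *Tex15*-/- libraries, with overlap and a log2 fold change of 0.04 (95% interval -0.19 to 0.26). *Tdrd5* had 264, 256 and 275 CPM in controls against 262, 207 and 269 CPM in *Tex15*-/- libraries. Library 2 alone was low, and libraries 1 and 3 lay within the control range. The log2 fold change of *Tdrd5* was -0.11 with all libraries (95% interval -0.36 to 0.14; adjusted p = 0.760, edgeR) and 0.01 without library 2, the one with the highest marker sum, whose part in this was not tested.

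Of the genes known from granules of later germ cells, *Tdrd7* had 173, 169 and 168 CPM in controls against 178, 203 and 201 CPM in *Tex15*-/- libraries. All 3 *Tex15*-/- libraries were above all controls, library 1 by 0.07 over the control mean on the log2 scale and libraries 2 and 3, those with the high marker sums, by 0.26 and 0.24. The log2 fold change was 0.19 (95% interval -0.02 to 0.40; unadjusted p = 0.0703, adjusted p = 0.573, edgeR) and did not pass the test, and the part of the markers in it was not tested. *Rnf17* had 362, 372 and 361 CPM in controls against 361, 322 and 352 CPM in *Tex15*-/- libraries, with overlap at library 1 and a log2 fold change of -0.08 (95% interval -0.27 to 0.11). *Tdrd6* had 7.01, 6.22 and 4.03 CPM in controls against 7.01, 6.18 and 7.04 CPM in *Tex15*-/- libraries, from only 22 to 38 reads a library. At 22 reads, counting error alone gives an SD of 21.3%. Its log2 fold change of 0.23 has a 95% interval from -0.50 to 0.96, the widest of the 10, and a difference of the size fitted for *Tdrd7* could not be told at this depth.

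*Stk31*, the highest of the group per kb of exon, had 595, 658 and 702 CPM in controls against 584, 608 and 589 CPM in *Tex15*-/- libraries. The ranges overlapped at control library 1, and the log2 fold change was -0.13 (95% interval -0.33 to 0.07; adjusted p = 0.645, edgeR). *Tdrd3* had 80.6, 70.6 and 78.1 CPM in controls against 64.9, 81.0 and 66.6 CPM in *Tex15*-/- libraries, where library 2 was the highest of all 6. Its log2 fold change was -0.11 (95% interval -0.39 to 0.17). A 2-fold difference, 1 on the log2 scale, thus lay outside the 95% interval of each gene but *Tdrd12*.

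**Figure D3:**
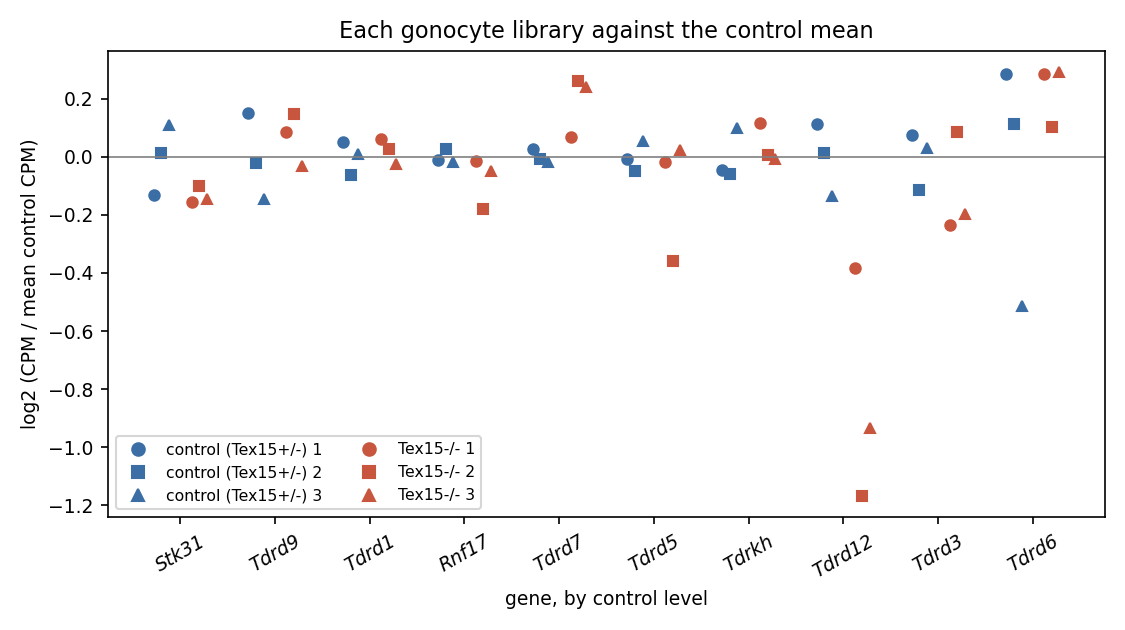
The log2 ratio of the CPM of each gonocyte library to the mean control CPM of the same gene, for the 10 genes in order of control level, with controls in blue and *Tex15*-/- in red and the symbol giving the library number. *Tdrd12* in *Tex15*-/- libraries 2 and 3 lies at -1.17 and -0.93, *Tdrd5* in library 2 at -0.36, and *Tdrd6* in controls has a wide spread of its own.

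Other genes of the piRNA pathway and its granules were taken from a list of 17, in which none were called in edgeR or DESeq2 and 1 had an unadjusted p under 0.05, against 9.2% of all genes tested (*Pnldc1*, which encodes the piRNA trimming enzyme, edgeR log2 fold change -0.31, adjusted p = 0.521, named after its value was seen). In this list 11 log2 fold changes were below 0 and 6 above, with a median of -0.10 against -0.03 for the Tudor domain genes. All but 2 were within 0.25 of 0, as were 8734 of all 16311 genes tested. A fitted value near 0 can hide a single library. *Mov10l1* (log2 fold change -0.24, named after its value was seen) had 264 CPM in *Tex15*-/- library 2, the one with the highest marker sum. It had 555.5, 531 and 520 CPM in controls and 548 and 545 CPM in *Tex15*-/- libraries 1 and 3. The part of the markers in this was not tested. The groups did not overlap for 2 of the 17, both lower, where 6.68% of all genes tested were lower without overlap. The 4 genes with the highest control level per kb were *Mael*, a piP-body component (381 CPM per kb; log2 fold change 0.03), *Ddx4*, a germ granule helicase (241; -0.06), *Fkbp6*, a co-chaperone of PIWI loading (150; 0.11), and *Piwil2*, which encodes MILI (136; 0.02). The 95% interval of each included 0, and *Piwil2* (136 CPM per kb) was close to *Tdrd9* (140).

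A second list held 21 Tudor domain genes outside the germ granules, many of them readers of methylated histones. None were called in edgeR or DESeq2, 1 had an unadjusted p under 0.05, against 9.2% of all genes tested (*Mtf2*, a Polycomb partner, edgeR log2 fold change -0.34, adjusted p = 0.492, named after its value was seen), 11 log2 fold changes were below 0 and 10 above, and the median was -0.01. The groups did not overlap for 3 genes lower and 3 higher, where 6.68% and 6.51% of all genes tested did not. The highest in controls were *Smndc1*, a splicing factor (46.6 CPM per kb; log2 fold change 0.12), *Spin1*, a reader of histone H3 methylation (39.6; 0.00), *Trp53bp1*, a DNA damage response protein (27.5; -0.08), and *Setdb1*, a histone H3K9 methyltransferase (18.2; 0.09). These levels lie below those of *Rnf17* and of the 3 highest germ granule genes.

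**Figure D4:**
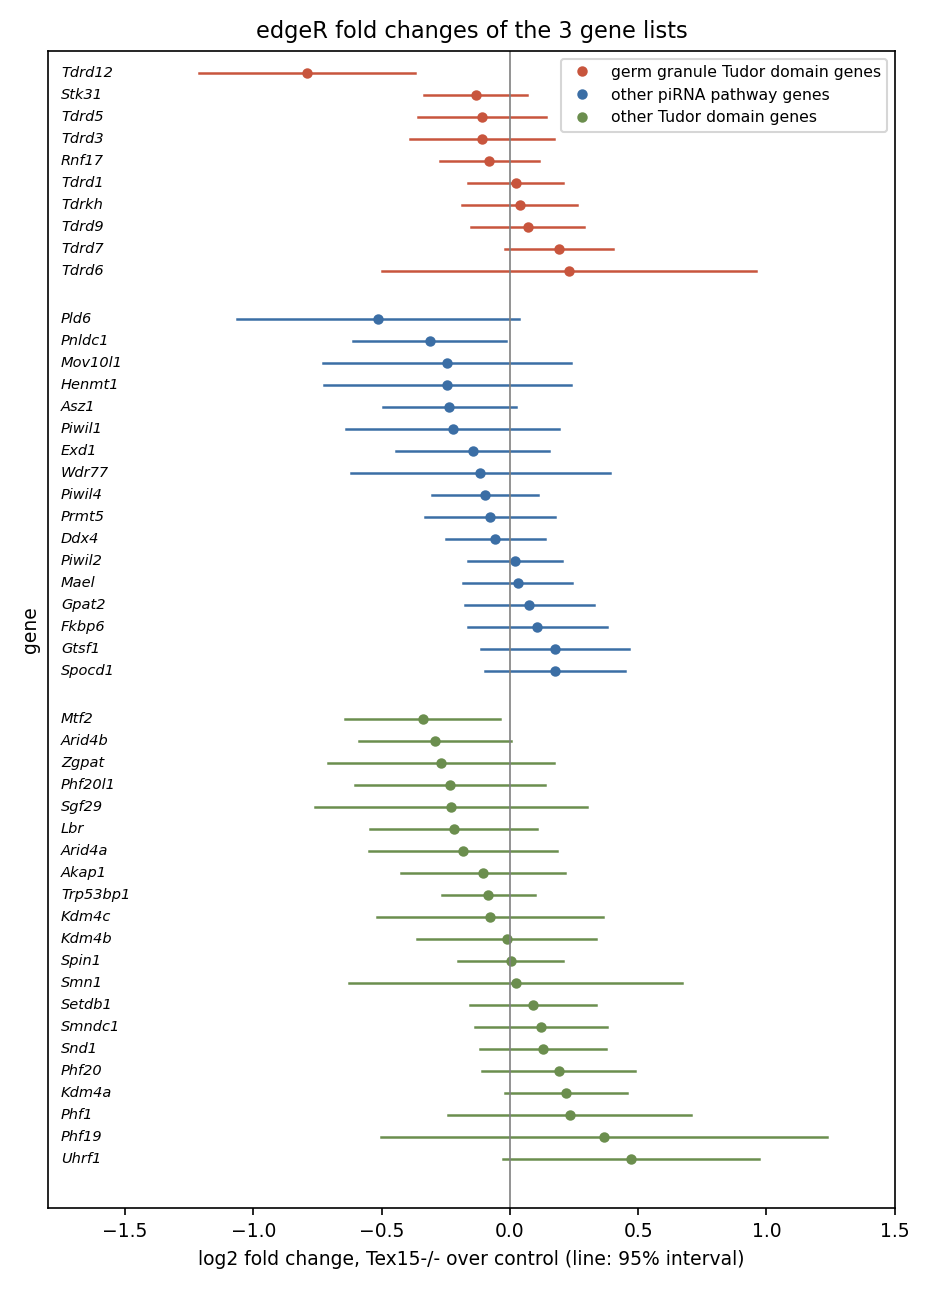
edgeR log2 fold changes, *Tex15*-/- over control, with 95% intervals (lines) for the 10 germ granule Tudor domain genes in red, 17 other piRNA pathway genes in blue and 21 other Tudor domain genes in green. *Tdrd12*, at -0.79, has the lowest value of the 48 genes, and the intervals of 45 of the 48 include 0.

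As a description of how the 10 genes varied together over the 6 libraries, their log2 CPM values were standardised and averaged. This mean took the values 0.32, -0.16 and 0.06 over the controls and 0.19, -0.21 and -0.21 over the knockouts, so it did not separate the genotypes. Among 9211 genes with a mean of at least 10 CPM, *Rab40c* followed it most closely (Pearson's r = 0.994, Spearman's rho = 0.943 over 6 libraries), and *Cit*, *Grhl1* and *Megf6* were among those that came next (r from 0.970 to 0.982). The points share libraries and depth, and so many genes were searched over so few libraries that no meaning is attached to these values.

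Small RNA libraries of E16.5 foetal testes, 3 *Tex15*+/- and 3 *Tex15*-/- with between 11184854 and 83102785 reads of 18 to 32 nt, gave a further readout of the same genes. Reads of 25 to 30 nt, the length of piRNAs, were kept if they matched a transcript of a Tudor domain gene exactly and no other gene. Reads that the authors annotated as repeat, miRNA, ncRNA or tegRNA were left out. The reads kept were rare, 493 in the 6 libraries. Of these 470 (95.3%) were in the sense of the transcript. U, the base with which piRNAs usually begin, came first in 74.0% (59.7% to 84.6% by library). These are shares of the reads kept, and no share over all reads of this length is set beside them. *Tdrd9* had the most in 5 of the 6 libraries and *Rnf17* in control library 1. These counts were not scaled to the length or RNA level of the gene, and *Tdrd9* also had the highest CPM of the 10 genes in control gonocytes (760). Over all libraries, of which control library 2 gave 252 of the reads, the genes had from 26 (*Tdrd7*) to 126 (*Tdrd9*) reads. The Tdrd9 sequence found most often, with 9 reads, 8 of them in control library 2 and 1 in control library 1, is shown as an example, with its first base in capitals and T for U.
Tdrd9 sense read: Tacaaattatcagagtctgcgactaagc

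Scaled to 1000000 reads of 18 to 32 nt (RPM), the reads on the 10 genes came to 3.70, 3.03 and 2.81 RPM in control testes and to 2.32, 2.86 and 2.97 RPM in *Tex15*-/- testes. The groups overlapped, with means of 3.18 (SD 0.462, n = 3) and 2.72 (SD 0.346, n = 3). The difference, *Tex15*-/- minus control, was -0.464 RPM, and -0.217 when each distinct sequence was counted once over the same reads. Over other denominators, which give other quantities, it was -1.31 for 1000000 reads of 21 to 23 nt and 2.02 for 1000000 distinct sequences of 18 to 32 nt, so the sign turned in the last. *Tdrd12* reached 0.435, 0.168 and 0.0494 RPM in control testes, and 0.298, 0.0894 and 0.240 RPM without *Tex15*, from 1 to 14 reads a library, and they overlapped widely. In none of the 10 genes were the groups apart, with two-sided exact permutation p-values from 0.20 to 1.00 where 3 libraries against 3 cannot give less than 0.10. At counts this low, counting error alone is wide, and a difference in a single gene may not be detectable.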

How the data were processed

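RNA-seq of E16.5 gonocytes was used for 3 *Tex15*+/- and 3 *Tex15*-/- libraries. The authors aligned the reads with HISAT2 and deposited raw counts per Ensembl gene from HTSeq 0.11.1 (GRCm38); strand use and the release of the annotation used for counting are not given in the sources used here. Rows naming no gene held 61.3% to 67.3% of each table and were left out. Of 54838 identifiers, 99.8% matched a GENCODE M21 symbol.

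Counts were compared with edgeR 4.0.16 in R 4.3.3 (TMM, filterByExpr with a minimum count of 10 and a total of 15, quasi-likelihood test, no block). All genes were fitted, p-values were adjusted over 16311 genes, and adjusted p under 0.01 was a call. Libraries were not paired by replicate number in this fit. Same-number correlations of deviations from the group means were -0.14, -0.04 and -0.01. With 3 libraries a group, these values cannot show whether libraries shared a litter or batch. A simulation took the mean levels and library sizes of this comparison (16413 genes). In it 53.5% of genes changed by 1 on the log2 scale and 100% of those changed by 2 were called. Only genes above a set mean CPM were changed, so the recovery does not cover genes as low as *Tdrd6*. Simulated libraries shared 1 spread, which was set and not fitted to these data. In the real data, where spread differs between libraries, 0 genes were called and *Tex15* at -2.35 was not. This recovery may therefore overstate what could be called. Alternatives were other filters, normalisations, DESeq2 1.42.0, a replicate block, another threshold and each library left out, and, chosen after seeing the data, *Tex15*-/- library 1 alone.

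For small RNA, the authors trimmed with cutadapt 1.8.1, annotated with Bowtie 1.2.1.1 and deposited read counts per sequence from 6 testes a library. These name no gene, so whole reads were matched to GENCODE M21 transcripts, a choice made after the data were seen. Sequences that the authors annotated as repeat, miRNA, ncRNA or tegRNA were left out. Of the 691 that remained, 315 found also in other genes were dropped. Promoter windows are those nearest the GENCODE gene start. Repeat counts and P20 testes were not used here.

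The members and lists were chosen with earlier results of these data known. Named genes are *Tex15*, the members, list genes with adjusted p under 0.05 (there were none), the 4 genes of each list with the highest control level per kb, and the 5 genes most correlated with the members' mean, of which 1 is not reported here. *Dazl*, *Nanos2*, *Nanos3*, *Dnmt3l*, *Pnldc1*, *Mov10l1* and *Mtf2* were added to these once their values were known, and *Piwil4* and *Oaz3* as context.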

Additional observations from a re-analysis of the deposited data

How the results depend on the processing

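No Tudor domain gene was called under any alternative except 2. *Tdrd12* was called without a filter on low counts beyond a total above 0 (1 gene; log2 fold change -0.76, adjusted p = 0.000863, edgeR), where 488 of all genes (1.15%) were called, and without *Tex15*-/- library 1 (-1.03, adjusted p = 0.00228), where 388 were called. Leaving out each library in turn thus gave 0 to 1 called genes. Over all its alternatives *Tdrd12* ranged from -1.03 to -0.38, with adjusted p-values from 0.000863 to 1.00 (DESeq2 0.0970). Calls over all genes were 14 in DESeq2, 1 with at least 10 counts in every library, 2 with the newer quasi-likelihood estimate, 3 at adjusted p under 0.05, 18 with *Tex15*-/- library 1 alone and 0 to 388 with a library left out. No gene of the other lists was called under any alternative.

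*Tex15* missed the call with all libraries (adjusted p = 0.0112) and passed it with no filter (-2.33), at least 10 counts (-2.37), DESeq2 (-2.34), the newer estimate (-2.35), *Tex15*-/- library 1 alone (-1.78) and adjusted p under 0.05 (-2.35), and ranged from -2.74 to -2.17 with a library left out, called without *Tex15*-/- library 1 (adjusted p = 2.11e-09, edgeR) or 2 (3.23e-06) and not in the other 4 (0.102 to 0.256). Signs turned for *Tdrd1* without TMM factors (-0.0076) and with a library left out (-0.0083 to 0.0528), and for *Tdrd5* with a library left out (-0.171 to 0.0059, the last without *Tex15*-/- library 2). These were the 3 that turned among 150 values, from 15 settings for each of the 10 genes. The setting with another threshold repeats the main fit, so its values could not turn. The replicate block gave 0 called Tudor domain genes (*Tdrd12* -0.82, adjusted p = 0.633) and changed no call.

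The difference in piRNA-size reads on the 10 genes, *Tex15*-/- minus control, was -0.464 RPM, -0.406 with 24 to 32 nt, -0.217 (chosen after seeing the data) with each distinct sequence counted once over the same reads, and, over other denominators, -1.31 for 1000000 reads of 21 to 23 nt and 2.02 for 1000000 distinct sequences of 18 to 32 nt, and ranged from -0.648 to -0.205 with a library left out. The cause of these changes was not tested. The low read numbers of *Tdrd6* and of the small RNA matches limit what could be seen.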
